A study of Saccharomyces cerevisiae with 45 samples.

Results

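The nuclear genes described here encode subunits of the mitochondrial respiratory chain and of the ATP synthase. They were chosen by name and make up 34 of the 6723 genes in the count table. Complex III is represented by 9 genes, COR1 (YBL045C), QCR2 (YPR191W), QCR6 (YFR033C), QCR7 (YDR529C), QCR8 (YJL166W), QCR9 (YGR183C), QCR10 (YHR001W-A), RIP1 (YEL024W) and CYT1 (YOR065W). Complex IV has 9, COX4 (YGL187C), COX5A (YNL052W), COX5B (YIL111W), COX6 (YHR051W), COX7 (YMR256C), COX8 (YLR395C), COX9 (YDL067C), COX12 (YLR038C) and COX13 (YGL191W). ATP synthase has 13, ATP1 (YBL099W), ATP2 (YJR121W), ATP3 (YBR039W), ATP4 (YPL078C), ATP5 (YDR298C), ATP7 (YKL016C), ATP14 (YLR295C), ATP15 (YPL271W), ATP16 (YDL004W), ATP17 (YDR377W), ATP18 (YML081C-A), ATP20 (YPR020W) and TIM11 (YDR322C-A). Both cytochrome c genes, CYC1 (YJR048W) and CYC7 (YEL039C), and NDI1 (YML120C) complete the set. RNA was sequenced from Saccharomyces cerevisiae spores germinating with and without rapamycin, an inhibitor of the TORC1 kinase. The study asked which transcripts depend on TORC1 after glucose-rich medium is restored. All libraries came from wild-type spores of the SK1 background, and the strain list of the study gives its SK1 diploids as MATa/MATα and homozygous for ho::LYS2, ura3, leu2, trp1, his3 and lys2. The rapamycin group was spores moved to YPD, a rich glucose medium, with 2000 nM rapamycin. The DMSO group was spores moved to YPD with the solvent, and purified spores that saw neither medium nor drug were the starting point. Both YPD groups were shaken at 30 °C and sampled at once (0 min) and after 10, 30, 60, 120, 240 and 360 min, with 3 libraries lettered A, B and C in each of the 15 conditions.

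The respiratory chain passes electrons from NADH, succinate and other donors through ubiquinone, complex III and cytochrome c to complex IV, which reduces oxygen, and the ATP synthase uses the resulting proton gradient. Budding yeast has no proton-pumping complex I, and the single-subunit enzyme Ndi1 takes electrons from matrix NADH in its place. Glucose represses many nuclear respiratory genes in growing cells, the Hap2/3/4/5 complex and Hap1 activate them, and oxygen decides which isoform of several subunits is used: Cox5a and iso-1-cytochrome c (CYC1) are the aerobic forms, and Cox5b and iso-2-cytochrome c (CYC7) are favoured when oxygen is scarce.

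The libraries held between 7736397 and 14522407 counted reads, and the 34 genes took between 0.305% (a DMSO 30 min library) and 1.22% (a rapamycin 360 min library) of them. Every one of the 34 had reads in all 45 libraries, the lowest count being 27, and every one passed the filter on low counts in each comparison. No 36-base stretch of their coding sequences, the shortest read kept by the study, was found elsewhere in the R64 genome. The known TORC1 reporters GAP1, DIP5 and MEP2 had a summed level of 12953 to 13566 CPM (reads of a gene scaled to the depth of its library) at 60 min with rapamycin, against 193 to 320 CPM with DMSO. They had risen without the drug before that. At 30 min they summed to 3744 to 4950 CPM with DMSO and 6122 to 6223 CPM with rapamycin, against 132 to 162 CPM in spores. Late sporulation markers (SPS100, SPS4, DIT1, DIT2, CRR1 and SPO74) summed to 47.1 to 58.1 CPM at 360 min with DMSO, against 10192 to 13671 CPM in spores. Of these 6 markers 5 fell by over 2-fold, and 1 did not, with a log2 fold change of 0.07. Daughter-cell separation markers (CTS1, DSE1, DSE2, EGT2 and SCW11) summed to 45.1 to 49.2 CPM at 360 min with rapamycin and to 744 to 1135 CPM with DMSO. Some libraries stood apart. Rapamycin 360 min replicate A had a rank correlation over all genes of 0.959 with B and 0.958 with C, where B and C reached 0.997. At 60 min, replicate C was the highest library of its group for 34 of 34 members with rapamycin and for 32 of 34 with DMSO. DMSO 360 min replicate A was the highest library of its group for 31 of the 34. For several results that rest on these libraries, values without them are also given.

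In DMSO few of the respiratory genes changed at first, and by 360 min 19 of the 34 had risen above their spore level. Most of the early calls were downwards, a direction that depended on the scaling. A gene is said to have risen or fallen where the adjusted p was under 0.05 and the change at least 2-fold. At 0 min 0 of the 34 were called against spores by edgeR's quasi-likelihood test or by DESeq2. In edgeR 0% of all genes tested were called. An unadjusted p under 0.05 was reached by 18 of the 34 members and by 948 of the 5742 genes tested. At 10 min 3 fell and 0 rose (QCR2, QCR10 and NDI1), against 22.8% of all genes called in either direction and 7.37% called lower. At 30 min 5 fell (QCR8, QCR10, COX13, ATP3 and NDI1) and 1 rose (COX5B), against 44.3%, with 20% lower and 24.3% higher. At 60 min 6 rose and 5 fell, against 55.3% (28.5% higher and 26.8% lower). At 120 min 17 rose and 1 fell, against 61.8% (31% higher and 30.8% lower). At 240 min 17 rose and 3 fell, against 60% (30.1% higher and 29.9% lower), and at 360 min 19 rose and 2 fell, against 58% (29.4% higher and 28.6% lower). The members called from 120 min on were thus mostly higher, where calls over all genes were split evenly. At any fold, the adjusted p was passed by 22, 25, 24, 32, 32 and 32 members from 10 to 360 min, and by 75.5%, 81.7%, 85.5%, 89%, 88.8% and 87.5% of all genes. The median log2 fold change of the 34 genes over spores was 0.18, 1.01 and 1.24 after 60, 120 and 360 min, where all genes had -0.01, -0.03 and 0.02. No external RNA standard was used, so these are changes relative to the other transcripts of a library. With library size as the only scaling, the median of all genes lay between -0.44 (120 min) and 0.37 (10 min), the 3 falls at 10 min were lost and 9 of the 34 genes had the other sign at that time. That scaling also left 9 of the 17 rises at 120 min, and every one of the 21 calls at 360 min. The p-values measure the spread between these libraries, since the labels do not say that the letters were separate cultures. Fewer cells with a transcript and less of it per cell cannot be told apart in such bulk samples.

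**Figure D1:**
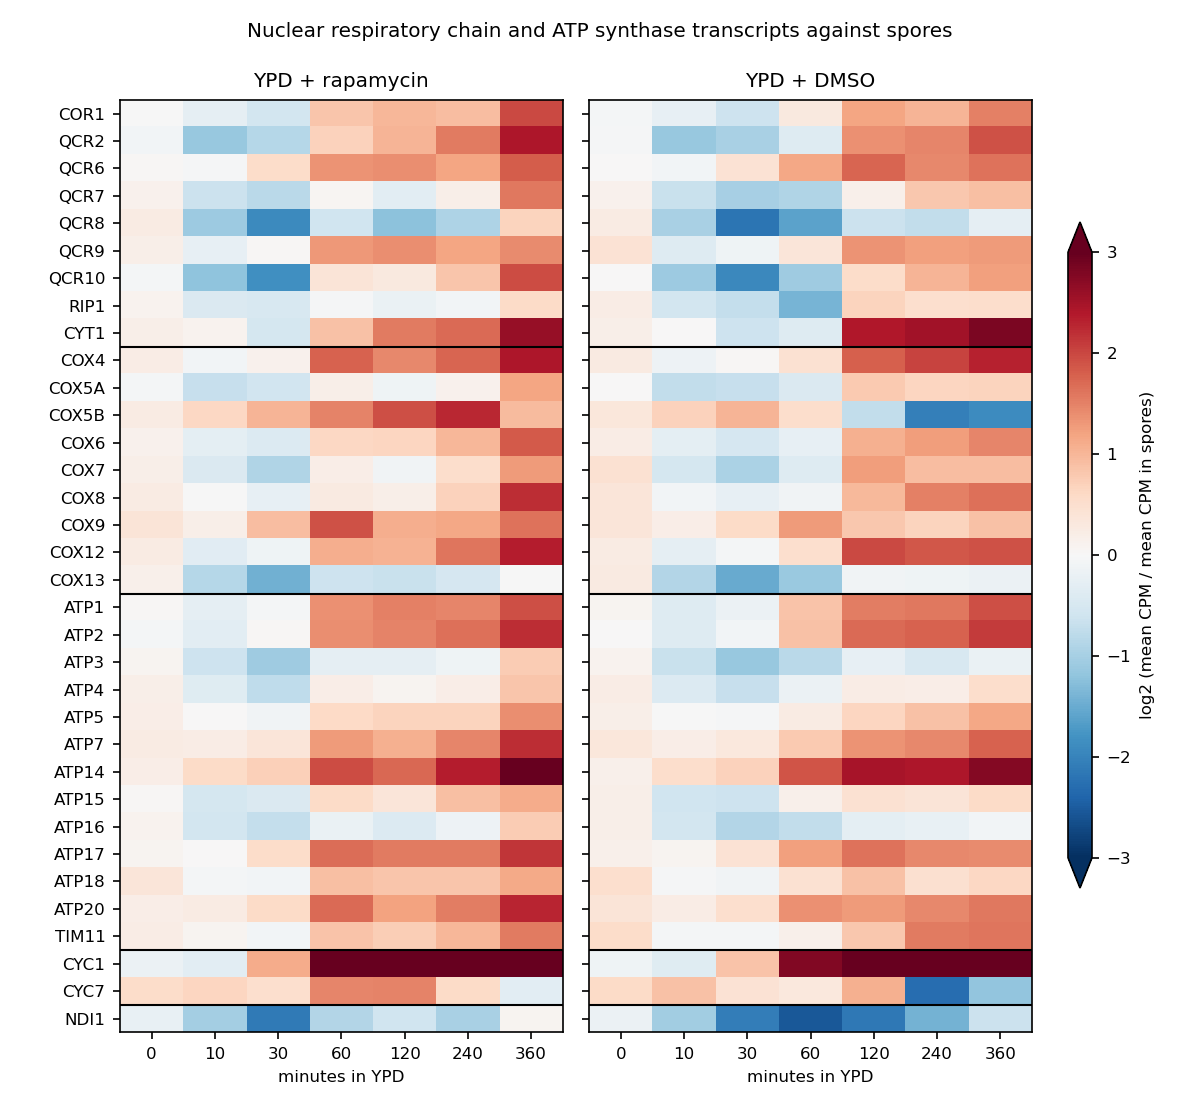
Heat map of the 34 genes in rows (black lines separate complex III, complex IV, ATP synthase, cytochrome c and NDI1) against minutes in YPD with rapamycin (left) or DMSO (right). Colour is the log2 ratio of the mean CPM of 3 libraries to the mean CPM in spores, cut at 3 in either direction: CYC1 leaves the scale from 60 min with rapamycin and from 120 min with DMSO, NDI1 is below its spore level at 60 min in both groups, and COX5B and CYC7 are above their spore level with rapamycin and below it with DMSO at 240 min.

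Complex III carries electrons from ubiquinol to cytochrome c. Its CYT1 transcript, for cytochrome c1, had 435, 464 and 396 CPM at 360 min with DMSO, against 57.9, 50.7 and 73.4 CPM in spores. The 3 libraries of each group did not overlap, and CYT1 rose by 2.81 ± 0.13 on the log2 scale (SE, adjusted p = 5.15e-11), the largest increase of the complex. At the other end, QCR8, for a small subunit next to the ubiquinone site, had 230, 173 and 159 CPM at 360 min with DMSO, against 208, 217 and 252 CPM in spores. Those groups overlapped, and the log2 fold change of -0.29 ± 0.13 did not reach 2-fold. QCR8 had gone through a low point on the way, with 80.1, 56.6 and 87.1 CPM at 60 min, a fall of 1.62 ± 0.14 on the log2 scale (adjusted p = 2.73e-07), while QCR6, the acidic hinge subunit, rose at the same time to 481, 434 and 464 CPM, against 176, 217 and 221 CPM in spores (log2 1.14 ± 0.11, adjusted p = 5.89e-07). With library size alone the rise of QCR6 at 60 min fell just short of 2-fold, at 0.95. Of the 9 genes, 6 rose by 360 min (CYT1, the core protein genes COR1 and QCR2, and QCR6, QCR9 and QCR10) and 0 fell, and RIP1, for the Rieske iron-sulfur protein, QCR7 and QCR8 were not called.

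Complex IV reduces oxygen. COX4, which encodes its nuclear subunit IV, had 179, 155 and 168 CPM at 360 min with DMSO, against 32.2, 34.3 and 34.4 CPM in spores, a rise of 2.29 ± 0.09 on the log2 scale (SE, adjusted p = 1.38e-11) and the largest of the complex. COX6, COX8 and COX12 rose as well, by 1.44, 1.64 and 1.90. COX5A, COX7, COX9 and COX13 were not called. COX5B was the only complex IV gene that fell at that time, and it is described with its partner below. COX9 (subunit VIIa) rose most in the complex at 60 min, with 171, 132 and 172 CPM, against 66.4, 60.2 and 70.7 CPM in spores (log2 1.24 ± 0.11, adjusted p = 4.87e-07), and its rise was under 2-fold by 360 min. COX13 (subunit VIa) fell at that time, with 79.7, 82.2 and 99 CPM at 60 min, against 177, 188 and 198 CPM in spores, a log2 change of -1.14 ± 0.10 (adjusted p = 1.98e-07), and it was back at a log2 change of -0.20 by 360 min, which was not called.

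ATP synthase couples a proton-driven rotor to the catalytic F1 head. ATP14, for subunit h of its stator, had 209, 141 and 152 CPM at 360 min with DMSO, against 24.5, 24.1 and 25.5 CPM in spores. ATP14 had the largest increase of the 13 genes at both 360 and 60 min, 2.74 ± 0.14 on the log2 scale at 360 min (SE, adjusted p = 1.56e-10) and 1.85 ± 0.16 at 60 min (adjusted p = 1.98e-07). ATP1 and ATP2, for subunits of the F1 head, rose by 1.91 and 2.08 at 360 min. None of the central stalk genes was called: ATP3 (γ) had 220, 214 and 216 CPM, against 242, 240 and 269 CPM in spores (log2 -0.23 ± 0.09, below 2-fold), ATP16 (δ) stood at -0.10 and ATP15 (ε) at 0.55. Of the 13 genes, 8 rose by 360 min and 0 fell. Those that rose were ATP1, ATP2, ATP5, ATP7, ATP14, ATP17, ATP20 and TIM11, and ATP3, ATP4, ATP15, ATP16 and ATP18 were not called.

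The later part of germination could be tested without the spore libraries. Between 360 and 60 min with DMSO, 23 of the 34 genes rose and 2 (COX5B and CYC7) fell, against 38.1% of all genes called in either direction (20.9% higher and 17.3% lower), and the median log2 fold change was 1.23 with all genes at 0.04. Complex III moved most, with a median of 1.94 over its 9 genes, then complex IV with 1.45 and the ATP synthase with 0.83. No test was made between these medians. With 1 library left out, the DMSO calls in either direction ran over 21 (without DMSO 360 min replicate A) to 25. The same interval with rapamycin gave 14 genes that rose and 1 that fell (CYC7), against 26.2% of all genes (13.2% higher and 13% lower), with a median of 0.91. Without rapamycin 360 min replicate A the numbers were 15 and 1, again with 26.2% of all genes called. With 1 library left out, the rapamycin calls in either direction ran over 11 (without rapamycin 60 min replicate B) to 18 (without rapamycin 360 min replicate C).

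Summed over its genes, complex III reached 4306 ± 916 CPM at 360 min with rapamycin, against 3256 ± 225 CPM with DMSO (SD, n = 3 each), and spores had 1343 ± 113 CPM. The spread of the rapamycin libraries at that time was wide: complex III summed to 5331, 4022 and 3565 CPM in A, B and C, and the ATP synthase summed to 3826, 5594 and 5521 CPM. Replicate A was thus the highest for one complex and the lowest for the other. Its QCR8 level was 687 CPM where B and C had 201 and 178 CPM, and its COX4 level was 99.8 CPM where they had 224 and 215 CPM. For 3 of the 34 genes it lay over 2-fold above both other libraries, and for 5 it lay over 2-fold below both. No other library lay that far from both of its partners for more than 1 of the 34 genes.

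**Figure D2:**
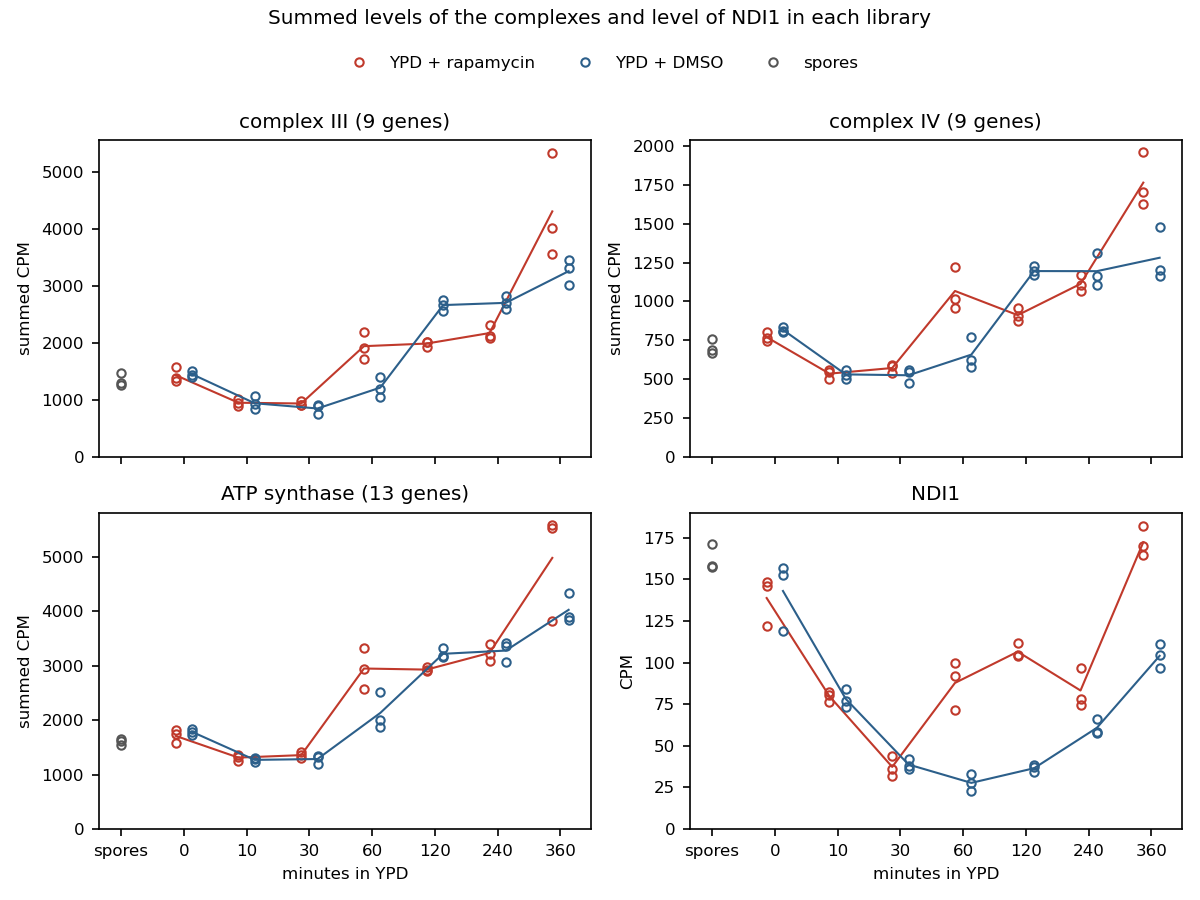
Level in each of the 45 libraries against minutes in YPD, as CPM summed over the genes of complex III, complex IV and the ATP synthase, and as CPM for NDI1. Each circle is a library (rapamycin red, DMSO blue, spores grey), lines join the means of 3 libraries, and the axes start at 0: with the scaling used for these CPM the complexes dip at 10 and 30 min and are higher with rapamycin at 60 min, and NDI1 is higher with rapamycin at 60 and 120 min.

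With rapamycin, 0 of the 34 genes were called against DMSO at 0, 10 or 30 min by edgeR's quasi-likelihood test or by DESeq2, where 0%, 0% and 0.0172% of all genes were called by edgeR. The members' log2 fold changes lay between -0.31 and 0.36 at those times, and 1, 0 and 3 of them had an unadjusted p under 0.05. Over all genes tested, 22 of 5757, 100 of 5863 and 145 of 5823 had such a p. At 60 min 9 rose and 0 fell (QCR2, QCR7, QCR8, QCR10, RIP1, CYT1, COX4, CYC7 and NDI1), against 19.2% of all genes called in either direction with 10.4% called higher and 8.82% lower. All 34 fold changes were above 0, with a median of 0.61 where all genes had 0.04, and 28 passed the adjusted p in that direction at any fold, where 60.4% of all genes passed it in either direction. Complex III held 6 of the 9 calls and had a median of 1.03, complex IV had 1 call and a median of 0.66, and the ATP synthase had 0 calls and a median of 0.48. With both C libraries of 60 min left out, a setting chosen after seeing the data, 8 of these genes were called, CYC7 was not (0.97) and QCR9 was added (1.12). With library size alone all 9 were called and 5 were added (COX5B, COX6, COX9, QCR9 and TIM11). All 34 kept their direction with library size alone, which put the median of all genes at 0.35, and with DESeq2 size factors.

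In complex III at 60 min, QCR10, for a small accessory subunit, had 52.7, 40.2 and 87.1 CPM with rapamycin, against 17.6, 18.7 and 30.2 CPM with DMSO (log2 1.48 ± 0.31, SE, adjusted p = 0.00353). The groups did not overlap, and RIP1, CYT1 and QCR2 followed with log2 fold changes of 1.41 ± 0.14, 1.31 ± 0.26 and 1.12 ± 0.26. QCR6 had the smallest change of the complex, with 509, 523 and 525 CPM, against 481, 434 and 464 CPM, and its log2 fold change of 0.22 ± 0.10 did not pass (adjusted p = 0.0900). In complex IV, COX4 had 112, 87.4 and 142 CPM with rapamycin, against 40.7, 38.5 and 59.9 CPM with DMSO (log2 1.34 ± 0.21, adjusted p = 0.00102), and COX8 had the smallest change, 0.42 ± 0.19 (adjusted p = 0.0825), with groups that overlapped. Among ATP synthase genes the changes ran from 0.11 ± 0.17 for ATP14 (adjusted p = 0.599) to 0.74 ± 0.20 for TIM11, the subunit e that helps the enzyme form dimers (adjusted p = 0.0126). ATP14 had 87.8, 89.6 and 109 CPM with rapamycin, against 90.4, 70.1 and 113 CPM with DMSO, and these groups overlapped.

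**Figure D3:**
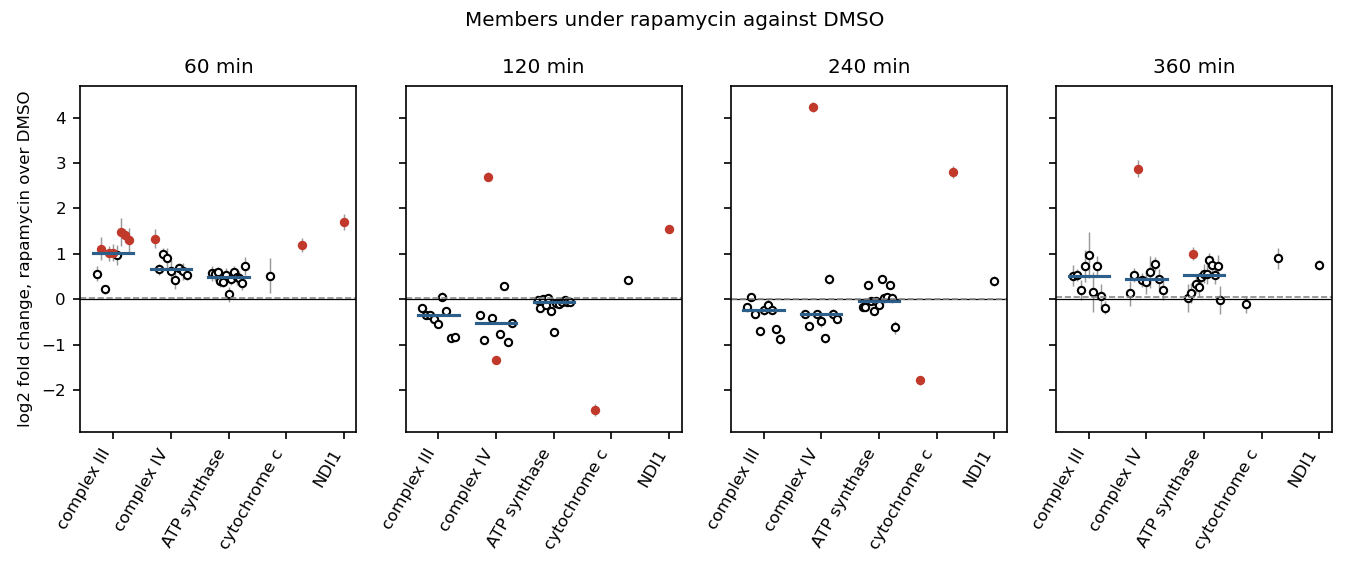
Log2 fold change of each gene, rapamycin over DMSO, at 60, 120, 240 and 360 min (panels) by complex, with standard errors. Filled red points passed the adjusted p and the 2-fold minimum, blue bars are medians of a complex and the dashed line is the median of all genes: the cloud lies above 0 at 60 min, and COX5B and CYC1 lie away from most others, on opposite sides, at 120 and 240 min. NDI1 at 120 min (1.56) and CYC7 at 240 min (2.81) lie on the side of COX5B.

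At 120 min most subunits differed from DMSO by less than 2-fold, and the sign of many depended on the scaling. Only 2 genes rose (COX5B and NDI1) and 2 fell (CYC1 and COX7), against 36.9% of all genes called in either direction, 21.3% higher and 15.6% lower. At any fold, 19 were lower and 4 higher, where 81% of all genes passed, and the medians were -0.35 for complex III, -0.52 for complex IV and -0.05 for the ATP synthase. With library size alone, which put the median of all genes at 0.54 in place of 0.03, 17 of the 34 genes changed sign, among them 9 that had passed the adjusted p (ATP2, ATP7, COR1, COX4, COX6, QCR10, QCR2, QCR6 and QCR7), and COX7 was no longer called, at -0.84. COX7, for a small subunit of complex IV, had 27.0, 26.4 and 24.9 CPM with rapamycin, against 62.8, 69.9 and 69.0 CPM with DMSO (log2 -1.34 ± 0.08, adjusted p = 7.10e-08). RIP1 was the lowest of complex III, with 124, 135 and 118 CPM, against 221, 231 and 237 CPM, a log2 change of -0.85 ± 0.07 that kept its sign with library size alone but stayed under 2-fold. ATP14 was the lowest of the ATP synthase, at -0.72 ± 0.06. QCR9 and ATP5 had the highest values of their complexes, 0.06 ± 0.10 and 0.04 ± 0.06, and neither passed the test. At 240 min 2 genes rose (COX5B and CYC7) and 1 fell (CYC1), against 21.8% of all genes (14.1% higher and 7.68% lower), and the other 31 stayed within 2-fold. At any fold 22 members passed there, and 73.4% of all genes did. Of the 34 fold changes at 240 min, 11 were above 0, and 19 were with library size alone, which put the median of all genes at 0.24.

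By 360 min 2 genes rose with rapamycin (COX5B and ATP3) and 0 fell, against 15.7% of all genes called in either direction (10.4% higher and 5.3% lower), while 31 of the 34 fold changes were above 0 with a median of 0.53. The number that passed the adjusted p at any fold was 12, all higher, where 42.6% of all genes passed in either direction. This count rested on replicate A: without it 27 of the 34 were higher at any fold, where 62.3% of all genes passed, and 1 gene (COX5B) was called. All 13 ATP synthase genes were then higher, with fold changes from 0.31 to 0.98 on the log2 scale. ATP3 had 488, 397 and 391 CPM with rapamycin, against 220, 214 and 216 CPM with DMSO, with no overlap (log2 1.01 ± 0.14, adjusted p = 0.00137), and it was 0.89 without replicate A. QCR8 had the highest value of complex III, 0.97 ± 0.51, but did not pass (adjusted p = 0.154), its groups overlapped, and the value rested on replicate A: without it QCR8 stood at 0.04 ± 0.14 and QCR10 was the highest, at 0.93 ± 0.13. CYT1 was the lowest of complex III, at -0.18 ± 0.15 (adjusted p = 0.354). The values of COX4 (0.13 ± 0.27) and TIM11 (-0.01 ± 0.31) did not pass either, and replicate A was the lowest library of both genes. All 5 daughter-cell separation markers were lower with rapamycin at this time, and the part of cell division in these values was not tested.

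Whether the effect of rapamycin differed between times was tested directly. Between 30 and 60 min it became larger in 6 genes, NDI1, QCR10, COX4, CYT1, RIP1 and CYC7, with differences in log2 fold change of 1.73, 1.35, 1.24, 1.20, 1.16 and 1.09, against 17.7% of all genes called in either direction. This count was 3 without rapamycin 60 min replicate C, 11 without DMSO 60 min replicate C and 6 with both left out, with CYC7 no longer called (0.87) and QCR2 added (1.12). From 60 to 360 min it became smaller in CYT1, RIP1, COX4 and NDI1, with differences of -1.55, -1.40, -1.27 and -1.01, and larger in COX5B (1.82), against 23.2% of all genes. Without rapamycin 360 min replicate A, the later calls were COX5B (1.81), CYT1 (-1.46), RIP1 (-1.12) and QCR8 (-1.06), with COX4 and NDI1 just under 2-fold at -0.99 each and no longer called.

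The paired genes COX5A and COX5B moved in opposite directions between rapamycin and DMSO at 120 and 240 min, COX5A by under 2-fold. Both encode the subunit V that complex IV needs, and a complex holds a single copy of either. COX5A lies at chrXIV:531725-532186 on the plus strand and has no intron, and COX5B lies at chrIX:155222-155765 on the plus strand with 1 intron (RefSeq, R64). COX5B had 132, 130 and 119 CPM at 120 min with rapamycin, against 19.2, 22.6 and 17.9 CPM with DMSO. At 240 min it had 162, 176 and 139 CPM with rapamycin, against 7.66, 8.85 and 7.78 CPM with DMSO. Spores had 34.7, 27.6 and 37.6 CPM, between the groups at both times. With rapamycin COX5B was thus higher by 2.70 ± 0.09 on the log2 scale at 120 min (SE, adjusted p = 2.29e-09), by 4.23 ± 0.12 at 240 min (adjusted p = 1.16e-11) and by 2.88 ± 0.18 at 360 min (adjusted p = 2.7e-05), where it had 64.8, 67.7 and 61.5 CPM, against 11, 8.78 and 7.21 CPM with DMSO. At 60 min the difference was 0.99 ± 0.14, just under 2-fold (adjusted p = 5.59e-04). These calls held in every alternative that was run for 120 and 360 min. The fall of COX5B in DMSO against spores at 360 min was 1.91 ± 0.18 on the log2 scale (adjusted p = 1.08e-07).

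COX5A moved less and the other way. It had 193, 216 and 197 CPM at 120 min with rapamycin, against 395, 370 and 368 CPM with DMSO (log2 -0.89 ± 0.07, SE, adjusted p = 3.85e-07), which is under 2-fold. By 360 min it was the higher with rapamycin, at 507, 521 and 461 CPM, against 408, 323 and 321 CPM with DMSO (log2 0.53 ± 0.15, adjusted p = 0.0243). Per kilobase of coding sequence, COX5A made up 86.7% ± 1.6 of the pair in spores (SD, n = 3). With rapamycin the share was 68.3% ± 1.7 at 30 min and 72.8% ± 2.3 at 60 min, went down to 61.1% ± 1.7 by 120 min and 59.8% ± 3.4 by 240 min, and stood at 88.3% ± 0.22 by 360 min. In DMSO it was 66.5% ± 0.96 at 30 min and 76.9% ± 2.4 at 60 min, and it had reached 94.9% ± 0.65 by 120 min, 97.7% ± 0.17 by 240 min and 97.5% ± 0.26 by 360 min. The log2 ratio of COX5A to COX5B differed between rapamycin and DMSO by -3.58 at 120 min and by -2.36 at 360 min, and the libraries did not overlap. In an exact two-sided permutation test each gave p = 0.1, which is the smallest value that 3 against 3 libraries allow. At 60 min the difference was -0.31 (exact permutation p = 0.2), with overlap. A ratio within a library does not depend on how libraries are scaled.

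The coding sequences of COX5A and COX5B share 67.5% of aligned bases, and their longest identical run has 12 bases, far below the 36-base minimum of the reads. That run is shown in capitals with 6 bases on either side, to show how soon the genes differ, from chrXIV:531965-531988 and chrIX:155541-155564 of the R64 reference, plus strand, 5′ to 3′.
COX5A: ggcccaAGAAGACCTGTAttgaat
COX5B: ggacctAGAAGACCTGTAcacgga

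CYC1 had the largest change of the 34 genes in DMSO against spores from 60 min on. It encodes iso-1-cytochrome c, the main carrier between complexes III and IV, at chrX:526335-526664 on the plus strand. CYC1 had 849, 807 and 655 CPM at 360 min with DMSO, against 3.03, 6.48 and 6.80 CPM in spores. That is a 139-fold rise, or 7.12 ± 0.22 on the log2 scale (SE, adjusted p = 7.61e-13), and the lowest count behind it was 27 reads in a spore library. At 60 min it already stood at 31.1, 19.4 and 61.1 CPM (log2 2.74 ± 0.40, adjusted p = 3.67e-05), with replicate C the highest. With rapamycin CYC1 had 53.8, 35.7 and 66.1 CPM at 60 min, and these groups overlapped (log2 0.52 ± 0.38, adjusted p = 0.267).

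After that the groups separated and met again. At 120 min CYC1 had 144, 193 and 130 CPM with rapamycin, against 796, 925 and 839 CPM with DMSO (log2 -2.44 ± 0.13, SE, adjusted p = 3.19e-08). At 240 min it had 254, 242 and 279 CPM, against 822, 982 and 761 CPM (log2 -1.78 ± 0.10, adjusted p = 4.61e-09). At 360 min it had 577, 863 and 661 CPM with rapamycin, against 849, 807 and 655 CPM with DMSO. The last pair overlapped and differed by -0.11 ± 0.19 (adjusted p = 0.670), and the sign turned to 0.01 without rapamycin replicate A.

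CYC7, for iso-2-cytochrome c, lies at chrV:79636-79977 on the minus strand and changed direction in DMSO. At 120 min, when CYC1 had already risen, CYC7 had 47.3, 50.2 and 56.3 CPM with DMSO, against 17.5, 27.2 and 28.2 CPM in spores (log2 1.08 ± 0.16, SE, adjusted p = 3.2e-05). The groups did not overlap, but the rise was under 2-fold with library size alone (0.67) and without spore replicate A (0.84). By 240 min it had fallen below spores, by 2.30 ± 0.20 on the log2 scale. CYC7 had 34.1, 39.6 and 35.5 CPM at 240 min with rapamycin, against 5.34, 4.88 and 4.80 CPM with DMSO, a log2 difference of 2.81 ± 0.13 (SE, adjusted p = 7.49e-10). At 60 min it was also higher with rapamycin, at 63.0, 56.0 and 82.1 CPM, against 28.9, 33.6 and 28.5 CPM (log2 1.19 ± 0.15, adjusted p = 4.77e-04), although leaving out both C libraries brought this to 0.97. Against spores CYC7 was lower by 1.20 ± 0.22 at 360 min with DMSO (14.1, 9.78 and 8.24 CPM, adjusted p = 1.32e-04). Per kilobase, CYC1 made up 97.3% ± 0.92 of the pair at 360 min with rapamycin, 98.7% ± 0.23 with DMSO and 18.3% ± 2.7 in spores (SD, n = 3 each). At 60 min the share was 44.1% ± 3.8 with rapamycin and 53.0% ± 15.8 with DMSO. At 120 min it was 70.0% ± 4.9 with rapamycin, against 94.5% ± 0.55 with DMSO, a difference of -2.88 in the log2 ratio with no overlap (exact permutation p = 0.1, the smallest possible).

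CYC1 and CYC7 are closer in sequence, with 77.0% of aligned coding bases identical. Their longest identical run has 35 bases, 1 short of the shortest read, and it is shown in capitals with 6 bases on either side because it is where the isoforms come nearest to sharing reads. The run lies at chrX:526554-526600 (plus strand) and chrV:79700-79746 (minus strand, written along the gene) of R64, 5′ to 3′.
CYC1: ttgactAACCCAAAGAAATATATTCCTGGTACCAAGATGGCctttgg
CYC7: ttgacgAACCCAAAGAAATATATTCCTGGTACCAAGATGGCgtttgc

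**Figure D4:**
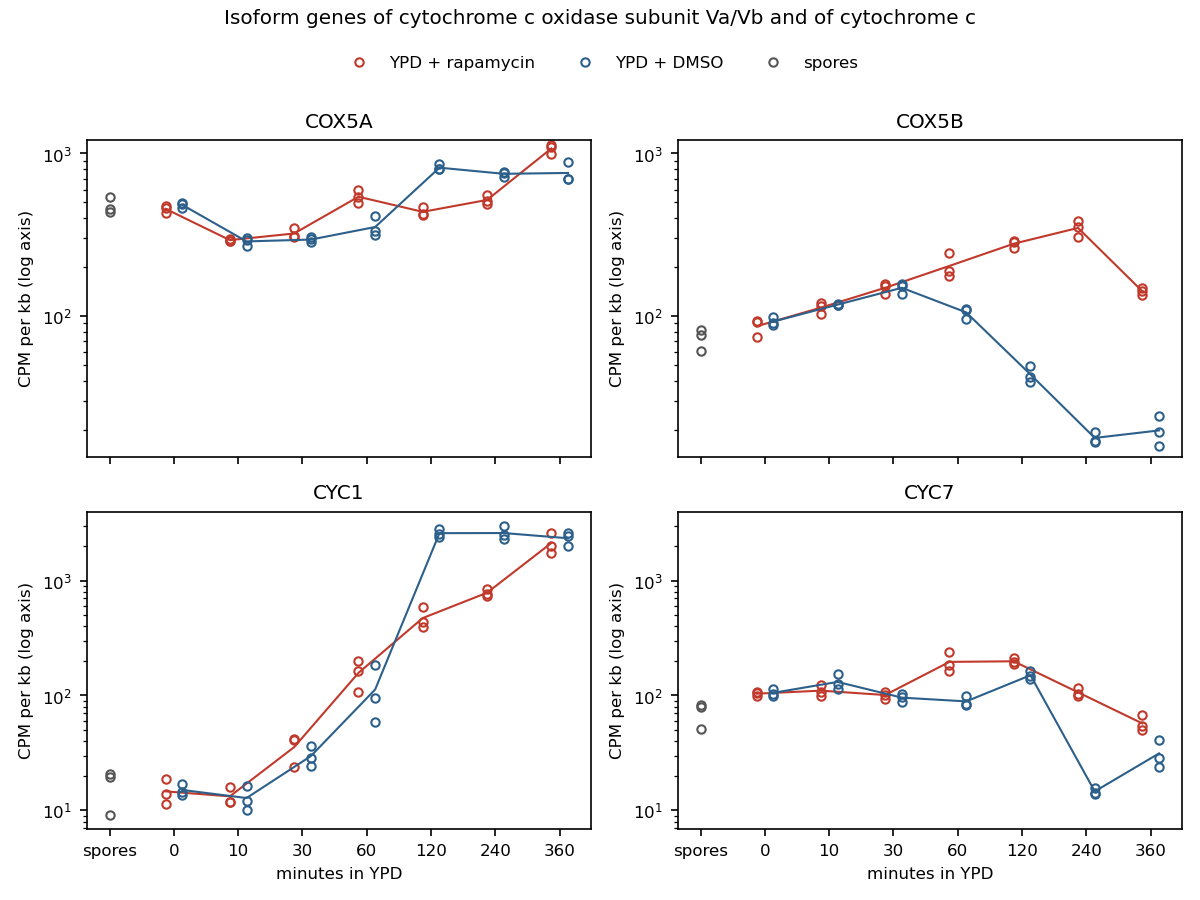
CPM per kilobase of coding sequence in each library (circles; rapamycin red, DMSO blue, spores grey; lines join means of 3 libraries) against minutes in YPD, on log axes. COX5B and CYC7 end lower with DMSO than with rapamycin, and CYC1 climbs from spores in both groups, reaching its plateau at 120 min with DMSO and close to it at 360 min with rapamycin.

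NDI1, at chrXIII:28266-29807 on the minus strand, fell early in DMSO. It had 22.9, 27.4 and 32.9 CPM at 60 min, against 158, 158 and 171 CPM in spores, a fall of 2.57 ± 0.12 on the log2 scale (SE, adjusted p = 6.50e-10). It was the only member that fell at each of 10, 30, 60, 120 and 240 min, and at 360 min, with 104, 111 and 96.9 CPM, it was lower than in spores by less than 2-fold (log2 -0.66 ± 0.09). With library size alone the fall at 10 min was not called. With rapamycin NDI1 had 92.0, 71.4 and 100.0 CPM at 60 min, 1.70 ± 0.17 above DMSO on the log2 scale (adjusted p = 2.57e-04). At 120 min it had 112, 104 and 104 CPM, against 37, 34 and 38.6 CPM with DMSO (log2 1.56 ± 0.07, adjusted p = 9.98e-09). The difference shrank to 0.40 ± 0.11 at 240 min and was 0.76 ± 0.12 at 360 min, both under 2-fold.

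The other donors to ubiquinone were taken from a list chosen with the members. Of the 4 genes of complex II, succinate dehydrogenase, 0 rose and 3 fell (SDH1, SDH2 and SDH4) in DMSO against spores at 360 min. Of all genes, 29.4% rose and 28.6% fell there. With rapamycin against DMSO, 4 of 4 were called higher at 60, 120 and 360 min and 3 of 4 at 240 min. Of all genes, 10.4%, 21.3%, 14.1% and 10.4% were called higher at 60, 120, 240 and 360 min. The complex II medians at these times were 1.34, 1.72, 2.17 and 1.25 on the log2 scale. SDH2, for the iron-sulfur subunit, averaged 141 CPM at 360 min with rapamycin (133 to 151 CPM), against 47.8 CPM with DMSO (40.5 to 53.0 CPM), and had 561 to 622 CPM in spores. The external NADH dehydrogenases split. NDE1 rose by 3.76 in DMSO against spores at 360 min and NDE2 fell by 6.96. With rapamycin at 120 min NDE1 was lower (-1.57) and NDE2 higher (2.66). They were the extremes of 5 other dehydrogenases on the list, of which 1 rose and 3 fell in DMSO against spores at 360 min. With rapamycin at 120 min 3 of the 5 were called higher and 1 lower, against 21.3% and 15.6% of all genes.

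Subunits of a complex are needed in fixed proportions, so their levels per kilobase were compared within each group. In complex III the highest gene stood 4.4-fold above the lowest at 360 min with DMSO (QCR6 and RIP1), against 12.1-fold in spores (QCR8 and CYT1), and at 60 min it stood 9.7-fold above with rapamycin, against 20.8-fold with DMSO (QCR6 and CYT1 in both). At 360 min with rapamycin QCR7 was highest, at 2314 ± 1230 CPM per kilobase, and RIP1 lowest, at 334 ± 128 (SD, n = 3). With DMSO at that time QCR6 had 1432 ± 174 and RIP1 323 ± 16. Rapamycin replicate A was the highest library for QCR7 and the lowest for RIP1. COX5B stands in for COX5A and has no fixed proportion of its own, so complex IV was compared without it, a choice made after seeing the data. Over the other 8 genes the gap was 3.0-fold at 360 min with rapamycin (COX9 and COX7), 2.6-fold with DMSO (COX5A and COX7) and 6.7-fold in spores (COX13 and COX4). With COX5B, the lowest gene in both YPD groups, it was 7.9-fold with rapamycin and 38.4-fold with DMSO. Among ATP synthase genes the gap ran between 3.8-fold (DMSO 240 min) and 7.1-fold (spores) over the groups. These are levels of poly(A) transcripts per kilobase of coding length and were not tested.

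What the members share in sequence was looked at in the 500 bases before each start codon of the R64 reference, which is the S288C strain, while the reads were aligned to SK1. The letters CCAAT, the core bound by the Hap2/3/4/5 complex, were found on either strand in 31 of the 34 members (91.2%), against 3748 of 6006 nuclear genes (62.4%). All 13 ATP synthase genes had them, and CYT1, COX4 and CYC1 did not. Complex II had them in 4 of 4 genes and the list of assembly factors in 15 of 28. The stretch nearest the start codon is shown for members that took opposite courses, with CCAAT or its complement ATTGG in capitals, read along the gene 5′ to 3′. COX5A is from chrXIV:531572-531592 and COX5B from chrIX:155142-155162 (plus strand), and CYC7 is from chrV:80418-80438 and NDI1 from chrXIII:29880-29900 (minus strand).
COX5A: cgtttgtgATTGGccctacgt
COX5B: acaatagaCCAATtatttcaa
CYC7: ccttttgcCCAATgaccattc
NDI1: tttaactaCCAATtgaggagt
The motif stood in genes that rose, fell or did neither, and its presence is given as a description only.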

How the data were processed

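Poly(A) RNA was sequenced strand-specifically (single reads of 101 bases, HiSeq 2000). The authors trimmed reads with Trimmomatic 0.33 (minimum length 36), aligned them to the SK1 genome with hisat2 2.0.4 and deposited one raw count per gene and library, made with HTSeq (union mode, reverse strand, Ensembl R64-1-1.86 annotation). Groups came from the labels.

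Counts were tested with edgeR 4.0.16 (quasi-likelihood, TMM, R 4.3.3) on the libraries of each comparison, for genes above 1 CPM in at least 3 of them, with Benjamini-Hochberg adjustment over all genes tested. A call required an adjusted p under 0.05 and a 2-fold change. CPM levels used TMM over all 45 libraries, and levels between genes were divided by RefSeq R64 coding length. Isoform ratios were compared by exact two-sided permutation. The 34 genes and the pathway lists were chosen with earlier results of these data known. Full values are given for COX5A, COX5B, CYC1, CYC7, NDI1 and the highest and lowest fold change of each complex.

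Alternatives were DESeq2 1.42.0, other scalings, no filter, no 2-fold minimum, one fit of all libraries, a replicate block and each library left out. Letters paired the libraries (every correlation of deviations over 0.1) at 0, 10 and 30 min. The script was tested on simulated data. No replicates agreed within sampling noise.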

Additional observations from a re-analysis of the deposited data

Results flagged for a closer look

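The effect of rapamycin, as the log2 fold change over DMSO, differed between times in a direct test for several genes (edgeR's quasi-likelihood test on 12 libraries, Benjamini-Hochberg over all genes). The effect at 60 min was above that at 30 min by 1.73 for NDI1 (adjusted p = 0.000126), by 1.35 for QCR10 (adjusted p = 0.0110), by 1.24 for COX4 (adjusted p = 0.00142), by 1.20 for CYT1 (adjusted p = 0.00712), by 1.16 for RIP1 (adjusted p = 0.000244) and by 1.09 for CYC7 (adjusted p = 0.000508). These were 6 of the 34 members, against 17.7% of all genes called in either direction (9.71% higher and 7.96% lower). No effect at 30 min had passed the test. The effect at 360 min was below that at 60 min for CYT1 (-1.55, adjusted p = 0.00202), RIP1 (-1.40, adjusted p = 0.00439), COX4 (-1.27, adjusted p = 0.0155) and NDI1 (-1.01, adjusted p = 0.00192), and above it for COX5B (1.82, adjusted p = 6.75e-05). In this second difference 1 of the 34 members was called higher and 4 lower. Of all genes, 23.2% were called in either direction (10.9% higher and 12.2% lower). Rapamycin 360 min replicate A was the lowest library of its group for CYT1, RIP1, COX4 and NDI1. Without it the differences of CYT1, RIP1 and COX5B were still called, at -1.46, -1.12 and 1.81, while those of COX4 and NDI1, at -0.99 each, were just under 2-fold and no longer called, and QCR8 was called, at -1.06.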

How the results depend on the processing

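No called member changed sign with either other scaling. Without the 2-fold minimum, 28, 23, 22 and 12 members passed with rapamycin against DMSO at 60, 120, 240 and 360 min, 22, 25, 24, 32, 32 and 32 in DMSO against spores from 10 to 360 min, and 19 in the difference between 60 and 30 min. In that difference 50.6% of all genes passed at any fold. With library size alone and the 2-fold minimum kept, 14 members were called with rapamycin against DMSO at 60 min, in place of 9. In the difference between 60 and 30 min 13 were called, in place of 6. That scaling put the median of all genes at 0.35 and 0.33 in these comparisons, in place of 0.04 and 0.005. The share of all genes called with it is not given here. Only 1 member, COX5B, was called at 360 min with DESeq2 size factors, without the filter, with the replicate block or with DESeq2. Library size alone gave medians for complex III, complex IV, ATP synthase and all members of 1.36, 0.99, 0.81 and 0.93 with rapamycin against DMSO at 60 min, 0.16, -0.0178, 0.45 and 0.29 at 120 min, and 0.79, 0.56, 0.47 and 0.61 in DMSO against spores at 120 min. Complex III had 0.61 with rapamycin at 360 min.

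With 1 library left out, calls ran over 6 to 13 at 60 min, 1 to 3 at 360 min and 3 to 11 for the difference between 60 and 30 min. The medians at 60 min ran over 0.91 to 1.25 for complex III, 0.57 to 0.81 for complex IV, 0.33 to 0.65 for the ATP synthase and 0.48 to 0.77 for all members. Complex III ran over 0.22 to 0.55 with rapamycin at 360 min and over -0.73 to -0.22 in DMSO against spores at 60 min. In DMSO against spores at 120 min, complex IV ran over 0.85 to 1.04 and all members over 0.90 to 1.07.

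Values that had not been called turned sign, with the cause not tested. With 1 library left out, ATP14 at 60 min went down to -0.0479 (without DMSO replicate B), QCR9 at 120 min ran over -0.0369 to 0.18 and, at 360 min, CYC1 ran over -0.27 to 0.00692, COX4 over -0.0436 to 0.42 and TIM11 over -0.33 to 0.31. TIM11 at 360 min was also 0.0374 with library size alone and 0.00131 with all 45 libraries in one fit. The replicate block gave 10, 4, 3 and 1 calls with rapamycin against DMSO at 60, 120, 240 and 360 min, and moved no count at 0, 10 or 30 min.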

Other observations

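Genes around the chain moved in both directions. STF1, whose product stabilises the inhibitor of the ATP synthase, changed by -5.0 ± 0.18 on the log2 scale (SE) in DMSO against spores at 60 min, and it was higher with rapamycin than with DMSO by 2.21 ± 0.34 at 60 min and 1.49 ± 0.25 at 360 min. INH1, the inhibitor itself, was higher with rapamycin by 1.79 ± 0.23 at 60 min. Of the 3 ATP synthase regulators listed, 1 rose and 2 fell in DMSO against spores at 60 min, against 28.5% and 26.8% of all genes. With rapamycin against DMSO 2 were called higher and 0 lower at 60 min, against 10.4% and 8.82%. At 120 min 1 was called higher and 0 lower, against 21.3% and 15.6%, and 1 was lower at any fold. Among the ADP/ATP carriers, PET9, the main aerobic form, rose by 2.71 ± 0.11 and the hypoxic form AAC3 by 5.87 ± 0.32 in DMSO against spores at 360 min, while AAC1 changed by -6.05 ± 0.11. With rapamycin at 360 min, AAC1 was higher than with DMSO by 1.65 ± 0.35 and AAC3 lower (-1.74 ± 0.34). A list of 5 hypoxic genes, AAC3 among them, had 4 that could be tested. In DMSO against spores at 360 min 4 of these rose and 0 fell, against 29.4% and 28.6% of all genes. COX5B and CYC7 fell in that comparison. With rapamycin against DMSO at 360 min 1 hypoxic gene was called higher and 1 lower, against 10.4% and 5.3% of all genes.

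HAP4, the limiting activator subunit of the Hap complex, rose by 3.61 ± 0.13 in DMSO at 60 min against spores, as did ROX1, the repressor of hypoxic genes, by 3.41 ± 0.18. Both were lower with rapamycin than with DMSO at 120 min (HAP4 -1.09 ± 0.06, ROX1 -1.48 ± 0.12). The list of regulators went both ways. Of its 7 genes, 2 rose and 1 fell in DMSO at 60 min against spores, against 28.5% and 26.8% of all genes. With rapamycin against DMSO at 120 min 2 were called higher and 3 lower, against 21.3% and 15.6% of all genes. Of the 28 assembly factors, 5 (17.9%) rose and 0 fell with rapamycin against DMSO at 60 min, where 10.4% of all genes rose and 8.82% fell. At 120 min 6 (21.4%) rose and 0 fell, against 21.3% and 15.6% of all genes. At 240 min 1 (3.57%) rose and 7 (25%) fell, against 14.1% and 7.68%, and 5 fell with library size alone. At 360 min 2 (7.14%) rose and 0 fell, against 10.4% and 5.3%, and 1 rose without replicate A of rapamycin. In DMSO against spores, 2 (7.14%) rose and 9 (32.1%) fell at 60 min, against 28.5% and 26.8% of all genes, and 4 (14.3%) rose and 4 fell at 360 min, against 29.4% and 28.6%. Transcripts of the mitochondrial genome are poorly captured by poly(A) selection, and between 2 and 4 of 7 passed the filter in these comparisons.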
